A study of Mus musculus with 2 samples.

Results

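The genes described here are 8 classical androgen response genes that do not encode secreted prostate proteins, namely Fkbp5, Zbtb16, Tmprss2, Ndrg1, Acsl3, Abcc4, Steap4 and Herc3. They were chosen by name, and all 8 were found among the 19320 features of the table. Prostate tissue of R26 mTmG/hAR:Osr1 Cre/+ mice, on a mixed C57BL/6 and 129S1/SvImJ background, was dissociated and profiled by droplet-based single-cell sequencing of RNA 3′ ends. In these mice Cre expressed from the Osr1 locus switches on a human transgene, labelled hARtg, and a membrane-bound green fluorescent protein (mGFP) in the same lineage, and every animal used carried both alleles and the driver. The labels list 1 library of prostatic intraepithelial neoplasia (PIN), from 6-month-old mice by the study's text, and 1 library of prostatic adenocarcinoma (PCa), from 12-month-old mice. There was no library of mice without the transgene, so each comparison below set cells of the same tissue against each other.

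Androgens raise or lower the transcription of many genes through DNA elements near them. In the prostate the best known of these genes encode secreted proteins such as probasin (Pbsn), which luminal cells release into the gland. The non-secretory ones act inside the cell or at its membrane. Some of them, above all Fkbp5 and Zbtb16, are also well known targets of the glucocorticoid receptor (Nr3c1), which reads the same DNA element.

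Barcodes in the table end in 1 of 2 suffixes, and the cells of each are named set 1 and set 2 here. The labels do not tie a suffix to a tissue, so no cell was assigned to PIN or PCa here, and no comparison of the tissues was made. Set 1 held 6332 cells with a median of 17235 UMIs (unique molecular identifiers, each marking a captured RNA molecule), and set 2 held 9410 cells with a median of 14824.5. The sets shared 67 barcodes. After removal of likely doublets, 6182 and 9227 cells were kept and gated on marker genes. This gave 1804 and 7241 luminal-like cells, 530 and 193 luminal cells with Krt4 transcripts, 2008 and 378 basal-like cells, 146 and 246 fibroblast-like, 38 and 151 endothelium-like, and 1094 and 251 leukocyte-like cells in sets 1 and 2. A smooth muscle-like class held 12 and 41 cells. Classes under 50 cells in a set, which are this class and the endothelium-like cells of set 1, were not ranked. Luminal-like cells summed to 23304 and 18619 CPM of 6 luminal markers against 387 and 10.6 CPM of 6 basal markers. Basal-like cells were less distinct, with 10609 and 8554 CPM of the basal and 13178 and 10260 CPM of the luminal markers, and they also held 1654 and 840 CPM of Dcn, a fibroblast marker, while Col1a1 and Lum were at 0 or 1 UMI. The class thus holds cells with keratins of both layers, and the name stands for the gate. The Krt4+ class has no clear border, and 164 of 2334 and 111 of 7434 luminal-like and Krt4+ cells lay close to its limit (within a factor of the root of 2). Levels are a class's total UMIs of a gene, scaled to CPM (per 1e6 UMIs of the class), with exact Poisson 95% intervals. Each set is 1 column group without replicates, so every interval covers counting error only and no difference has a replicate check.

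Fkbp5 encodes a co-chaperone of Hsp90 that holds steroid receptors in a state of low ligand affinity. In set 1 luminal-like cells ranked first, with 101 CPM (98.3 to 104), followed by Krt4+ (82.2), basal-like (41.7), fibroblast-like (28.4) and leukocyte-like cells (18.6), of which the last 3 had overlapping intervals between neighbours. The 38 endothelium-like cells of set 1, not ranked, held 55.3 CPM (30.2 to 92.7). In set 2 it stood at 56.6 CPM (49.2 to 64.8) in Krt4+ and 52.8 CPM (51.6 to 53.9) in luminal-like cells, whose intervals overlapped, with 41.2 in endothelium-like, 31.5 in basal-like and 8.83 CPM in leukocyte-like cells. Fkbp5 was thus highest in epithelium and was also measured outside it. After each cell was thinned to 3000 UMIs, 19.5% of luminal-like cells of set 1 and 14.1% of set 2 held a Fkbp5 UMI, beside 4.11% and 1.35% of leukocyte-like cells. Without thinning these shares were 59.8% and 50.4%, beside 6.49% and 6.37%, at median depths of 27596 and 16288 UMIs in luminal-like and 3810 and 6779 UMIs in leukocyte-like cells.

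Zbtb16 encodes the zinc finger transcription factor PLZF, which also directs the development of innate-like T lymphocytes. Luminal-like cells held 20.8 CPM (19.7 to 22.1) in set 1 and 26.1 CPM (25.3 to 26.9) in set 2, and basal-like cells held 9.85 and 12.9 CPM. The highest level of set 1 lay outside the epithelium, at 26.9 CPM (22.9 to 31.4) in leukocyte-like cells. Most of it came from 1 cluster of 73 leukocyte-like cells led by Ramp3, Icos, Calca and Il7r, which held 350 CPM of Zbtb16, while the other leukocyte-like clusters of set 1 lay between 1.91 and 41.4 CPM. In leukocyte-like cells of set 2 the level was 10.5 CPM (6.31 to 16.4).

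Tmprss2, a transmembrane serine protease, was measured almost entirely in epithelium. It reached 83.5 CPM (79.2 to 87.9) in Krt4+, 58.3 in luminal-like and 54.3 in basal-like cells of set 1. In set 2 the same classes held 52.3, 24.2 and 32.9 CPM. Fibroblast-like cells of set 1 held 0 UMIs, which allows up to 2.44 CPM at the limit of 3 UMIs, and leukocyte-like cells held 3.82 CPM. In set 2, endothelium-like, fibroblast-like and leukocyte-like cells held 3, 2 and 0 UMIs. Krt4+ cells ranked first in both sets with intervals apart from the next class.

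Ndrg1, a cytoplasmic protein whose transcription responds to differentiation, low oxygen and other stress as well as to androgen, had a stromal and basal pattern. Fibroblast-like cells led with 509 CPM (470 to 551) in set 1 and 307 CPM (276 to 339) in set 2, and basal-like cells followed with 222 and 253 CPM. Luminal-like cells were among the lowest classes, with 89.1 and 44.8 CPM. The order of fibroblast-like, basal-like and Krt4+ cells was shared by the sets, with intervals apart between each pair.

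Acsl3 activates long-chain fatty acids by joining them to coenzyme A. It was higher in basal-like cells (163 and 180 CPM in sets 1 and 2) than in luminal-like cells (127 and 126 CPM), which differed little between the sets. Fibroblast-like cells held 78.0 and 62.3 CPM, and leukocyte-like cells 17.3 and 9.38 CPM.

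The 2 membrane proteins of transport and metal metabolism had their highest levels outside luminal-like cells in each set. Abcc4, an efflux pump for cyclic nucleotides, prostaglandins and steroid conjugates, reached 49.0 CPM (38.9 to 60.9) in endothelium-like cells of set 2, above every other class of that set, with Krt4+ cells next at 7.04 CPM (4.60 to 10.3). In set 1, where the intervals of luminal-like, basal-like and fibroblast-like cells overlapped, it ranged from 2.99 CPM in leukocyte-like to 13.7 CPM in Krt4+ cells, and the 38 endothelium-like cells held 31.6 CPM. Steap4, a metalloreductase that reduces iron and copper, was highest in fibroblast-like cells, at 52.0 CPM (40.0 to 66.4) and 45.9 CPM (34.7 to 59.6), and next in basal-like cells, at 12.7 and 16.3 CPM. The 41 smooth muscle-like cells of set 2 held 66.9 CPM (42.4 to 100.3). In luminal-like cells Steap4 came to 3.14 CPM in set 1 and 0.505 CPM in set 2. Herc3, a ubiquitin ligase of the HECT family, lay between 1.62 and 4.85 CPM in epithelial and fibroblast-like cells and was highest in leukocyte-like cells of set 1, at 27.9 CPM (23.8 to 32.5), but its 9 UMIs in leukocyte-like cells of set 2 (4.97 CPM) did not set that class apart.

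**Figure D1:**
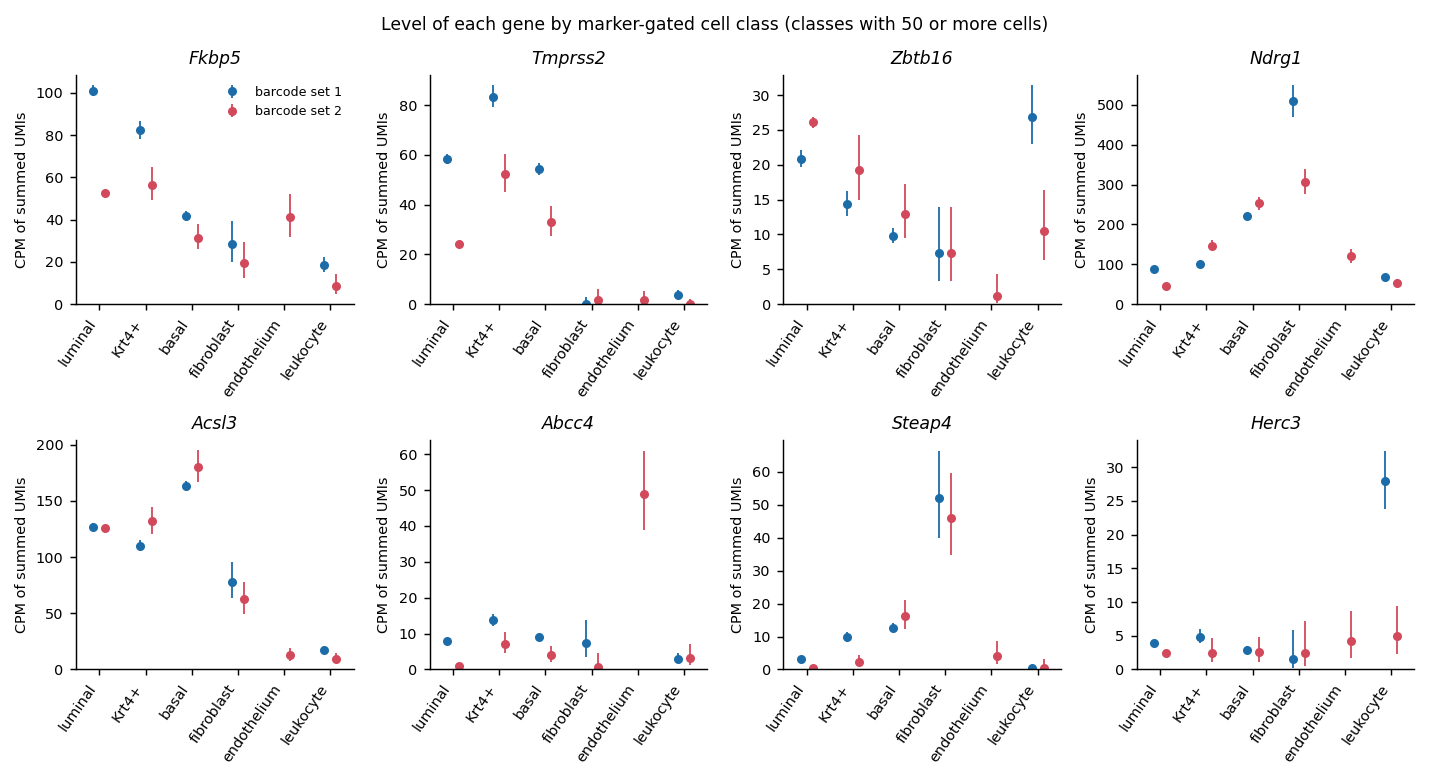
Level of each of the 8 genes (CPM of summed UMIs, linear axes from 0) in marker-gated classes with 50 or more cells, with barcode set 1 in blue and set 2 in red; points are CPM and bars are exact Poisson 95% intervals, which cover counting error only. Fkbp5, Tmprss2 and Acsl3 were highest in epithelial classes, Ndrg1 and Steap4 in fibroblast-like cells, Abcc4 of set 2 in endothelium-like cells, and Herc3 of set 1 in leukocyte-like cells. For Fkbp5 of set 2 the interval of endothelium-like cells overlapped those of luminal-like and Krt4+ cells.

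Nr3c1 and the transgene differed between the classes. Nr3c1 lay between 15.1 and 20.1 CPM in the 3 epithelial classes of the sets, against 450 and 75.6 CPM in leukocyte-like cells and 154 CPM in endothelium-like cells of set 2. hARtg stood at 148 and 1538 CPM in luminal-like, and at 266 and 574 CPM in basal-like cells. In leukocyte-like cells, taken as background, hARtg was at 21.8 and 67.3 CPM, and 4.57% and 33.9% of them had at least 1 hARtg UMI. A single hARtg UMI is therefore weak evidence for the transgene, above all in set 2, whereas 5 or more were seen in 0.366% and 0.797% of leukocyte-like cells. These shares were not thinned, and leukocyte-like cells had median depths of 3810 and 6779 UMIs. Luminal-like cells had 27596 and 16288 and basal-like cells 12245.5 and 6208.5 UMIs, so stray hARtg UMIs can be more frequent in the deeper cells.

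The first comparison asked whether basal cells with the transgene differed from those without it. In set 1, 1000 basal-like cells with at least 1 hARtg UMI (hARtg+, median 15886.5 UMIs) were set against 1008 cells with none (hARtg-, median 10217.5 UMIs), and in set 2, 275 (median 7047) against 103 cells (median 4473). A gene was called where its CPM differed at least 2-fold and the 95% interval of the log2 ratio left out 0. Of the 8 genes, 2 were called higher and 0 lower in hARtg+ cells of set 1, where 3.95% of 14241 genes were called higher and 2.37% lower. In set 2, 0 were called in either direction, against 3.36% of 11341 genes higher and 2.55% lower, and 3 members (Abcc4, Herc3 and Zbtb16) had under 50 UMIs over both sides.

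The genes called in set 1 were Fkbp5 and Zbtb16. Fkbp5 was at 58.6 CPM in hARtg+ and 16.9 CPM in hARtg- basal-like cells of set 1, a log2 ratio of 1.79 (1.59 to 2.00). Zbtb16 was at 13.8 and 4.13 CPM, a log2 ratio of 1.73 (1.32 to 2.17). In set 2 Fkbp5 stood at 32.5 against 27.1 CPM (log2 0.26, -0.48 to 1.07) and Zbtb16 at 13.1 against 12.1 CPM (log2 0.12, -0.999 to 1.43). The hARtg- side of set 2 held only 18 Fkbp5 and 8 Zbtb16 UMIs, so a 2-fold difference was within the interval of each gene. Of the hARtg- cells of set 2, 27.2% carried 10 or more mGFP UMIs per 10000, against 1.09% of those of set 1, and the part of this in the ratios was not tested.

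The other 6 genes differed by less than 2-fold. Ndrg1 was lower in hARtg+ cells of both sets, with 192 against 267 CPM in set 1 (log2 -0.48, -0.54 to -0.42) and 222 against 388 CPM in set 2 (log2 -0.80, -1.01 to -0.59). Acsl3 was slightly higher in both, at 167 against 157 CPM (log2 0.09, 0.02 to 0.17) and 193 against 124 CPM (log2 0.64, 0.31 to 0.996). In set 2 its interval held 0 with classes from clusters (log2 0.21, -0.14 to 0.58) and within cluster 15 (log2 0.29, -0.11 to 0.70). In set 1 the value with classes from clusters was log2 0.24 (0.15 to 0.33). The intervals of Steap4 and Herc3 held 0 in both sets. Tmprss2 (log2 0.31) and Abcc4 (log2 0.55) were higher in hARtg+ cells of set 1 with intervals above 0. Neither difference held when hARtg was counted after thinning each cell to 3000 UMIs, at log2 -0.05 (-0.19 to 0.09) and -0.07 (-0.42 to 0.28). That of Tmprss2 was also lost when classes came from clusters, at log2 -0.11 (-0.34 to 0.13). With that thinned split, thinning set the sides and the levels were taken from all UMIs. Its zero side held 1329 cells, among them cells with hARtg UMIs before thinning. Fkbp5 of set 1 then stood at log2 1.18 (1.03 to 1.33) and Zbtb16 at 1.25 (0.94 to 1.57). Pbsn was higher on the hARtg+ side of the whole class, at 389 against 172 CPM and 432 against 142 CPM. Within cluster 15, which held 82.9% and 93.2% of the sides of set 2, Pbsn was lower, at 44.4 against 75.3 CPM (log2 -0.76, -1.32 to -0.19). Within clusters 0, 6, 10 and 11 of set 1 its log2 ratio was 0.09 (-0.30 to 0.46), 1.90 (1.40 to 2.40), -0.55 (-1.26 to 0.11) and 0.86 (0.48 to 1.25).

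Luminal-like cells were split at 5 or more hARtg UMIs (hARtg-high) against 0. Set 1 gave 257 against 1128 cells (median 34287 and 26329.5 UMIs) and set 2 gave 6610 against 145 cells (median 17058 and 13824 UMIs). In set 1, 2 of the 8 genes were called higher and 1 lower, where 7.4% of 14500 genes were called higher and 7.2% lower. Of all genes called in set 1, 50.7% were higher, and 64.5% were after log2 ratios were centred on the median gene (-0.16), with the same counts of members. In set 2, 1 was called higher and 3 lower, where 6.91% of 16408 genes were called higher and 12.6% lower.

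Fkbp5 was the single member called in the same direction in both sets. In set 1 it was at 297 CPM in hARtg-high and 50.9 CPM in hARtg 0 cells (log2 2.55, 2.46 to 2.63), and in set 2 at 53.5 against 16.6 CPM (log2 1.68, 1.21 to 2.20). The zero side of set 2 held 36 Fkbp5 UMIs. The Fkbp5 call of set 2 was lost when hARtg was counted after thinning, at log2 0.42 (0.27 to 0.58). With that split the zero side held 498 cells in place of 145, among them cells with hARtg UMIs before thinning. Zbtb16 was called in set 1, at 49.7 against 12.7 CPM (log2 1.96, 1.77 to 2.16), and stood at 26.2 against 23.1 CPM in set 2 (log2 0.18, -0.22 to 0.61).

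Tmprss2, among the most used androgen response genes in human prostate work, was lower on the hARtg-high side of the luminal-like class in each set. It was at 41.8 against 65.6 CPM in set 1 (log2 -0.65, -0.81 to -0.49), which shrank to log2 -0.11 (-0.20 to -0.0089) with classes from clusters, and at 21.4 against 113 CPM in set 2 (log2 -2.40, -2.59 to -2.21), the latter past the limit for a call. Ndrg1 was called lower in set 1, at 37.1 against 103 CPM (log2 -1.48, -1.64 to -1.32), and was at 44.2 against 49.0 CPM in set 2 (log2 -0.15, -0.43 to 0.14). The direction of set 2 turned with a doubled margin of the gate (log2 0.73, 0.33 to 1.16) and with clusters (log2 1.08, 0.70 to 1.49). Its call in set 1 was lost, with log2 -0.57, when cells with 1 to 4 hARtg UMIs joined the transgene side. Acsl3 was lower in both sets by less than 2-fold, at 109 against 129 CPM (log2 -0.25, -0.35 to -0.15) and 123 against 229 CPM (log2 -0.90, -1.03 to -0.77).

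Abcc4 and Steap4 went opposite ways in the sets. Abcc4 was at 12.3 against 6.37 CPM in set 1 (log2 0.95, 0.61 to 1.29). In set 2 it was at 0.919 against 5.09 CPM (log2 -2.47, -3.35 to -1.43), where the zero side held 11 UMIs. Steap4 was at 4.17 against 2.74 CPM in set 1 (log2 0.60, 0.02 to 1.16) and at 0.470 against 1.85 CPM in set 2 (log2 -1.98, -3.40 to -0.06), where the zero side held 4 UMIs. Both were called lower in set 2, but the interval of Steap4 held 0 with clusters, with a doubled margin of the gate, with every cell weighed the same, after centring and with the thinned split at 1 or more. Herc3 was below 4.1 CPM on every side and was not called.

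**Figure D2:**
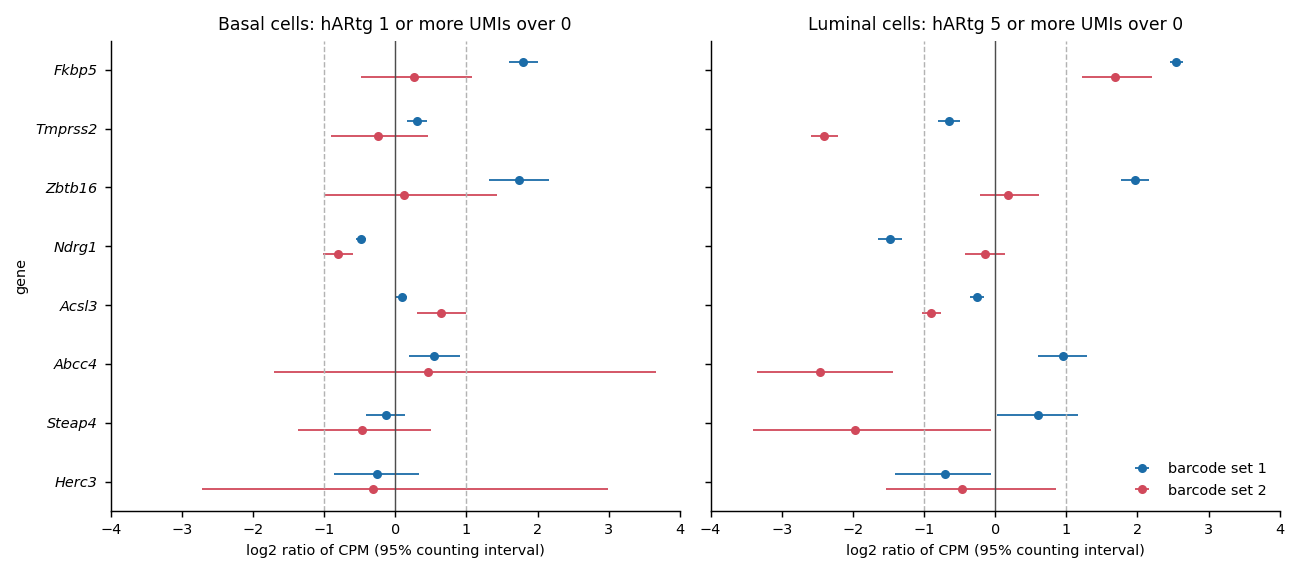
Log2 ratio of CPM, hARtg+ over hARtg- basal-like cells (left) and hARtg-high over hARtg 0 luminal-like cells (right), for each gene and barcode set (blue, set 1; red, set 2); bars are exact 95% counting intervals, the solid line is 0 and the dashed lines mark a 2-fold difference. Fkbp5 of luminal-like cells lay above the dashed line in both sets (2.55 and 1.68), Tmprss2 below 0 in both (-0.65 and -2.40), and Abcc4 and Steap4 on opposite sides of 0.

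The sides of the luminal comparison differed in more than the transgene. Pbsn was at 1304 CPM in hARtg-high against 4526 CPM in hARtg 0 cells of set 1, and at 74.3 against 6819 CPM in set 2. Of the hARtg-high cells of set 1, 71.6% were in cluster 7, led by Spink1 and related protease inhibitor genes, while the hARtg 0 cells were spread over several clusters, of which the largest held 31.0%. Of the 145 hARtg 0 cells of set 2, 55.2% were in cluster 13, led by 9530053A07Rik, Ren1 and Tgm4, and 36.6% carried 50 or more mGFP UMIs per 10000, against 95.3% of the hARtg-high cells. The part of these differences in the results for the 8 genes was not tested. The median log2 ratio of the 8 genes in luminal-like cells was 0.18 in set 1 and -0.68 in set 2, beside -0.13 and -0.45 over all genes tested, and in basal-like cells 0.20 and -0.06, beside -0.02 and -0.02.

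Levels were also taken over bins of hARtg UMIs per 10000. The bins were not split by cluster, so a step between bins can also be a step between clusters. In luminal-like cells of set 1, Fkbp5 went from 50.9 CPM at 0 to 86.2 CPM below 2, 313 CPM from 2 to under 10 and 292 CPM at 10 or more. Zbtb16 went from 12.7 to 20.9, 50.5 and 49.2 CPM over the same bins. Both genes were at a like level in the upper 2 bins. Tmprss2 went the other way, from 65.6 to 52.7, 42.0 and 40.6 CPM.

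In the luminal-like class of set 2, where 5176 of 7241 cells were in the highest bin, Fkbp5 went from 16.6 to 39.8, 58.8 and 52.0 CPM and Zbtb16 stayed between 21.6 and 27.5 CPM. Tmprss2 went from 113 to 89.2, 24.3 and 20.6 CPM, Acsl3 from 229 to 193, 118 and 124 CPM, and Pbsn from 6819 to 4694, 166 and 48.0 CPM. The widest steps of Tmprss2 and of Pbsn lay between the same bins. In basal-like cells of set 1, Fkbp5 went from 16.9 to 40.9, 74.3 and 48.4 CPM and Zbtb16 from 4.13 to 8.60, 16.6 and 19.4 CPM, whereas Acsl3 went from 157 to 139, 178 and 223 CPM. Ndrg1 of the same cells went from 267 to 205, 176 and 218 CPM.

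Krt4+ cells of set 1 gave a like order for Fkbp5. Fkbp5 was at 39.5 CPM in 276 cells with no hARtg, 61.0 CPM in 174 cells below 2 per 10000 and 263 CPM in 65 cells from 2 to under 10, and Zbtb16 was at 9.36, 9.50 and 39.6 CPM. Tmprss2 was not lower with more hARtg there, with 78.9, 85.2 and 94.2 CPM. The reporter gave a like order in luminal-like cells of set 1, where Fkbp5 went from 54.5 CPM without mGFP to 81.7, 272 and 326 CPM at above 0, from 10 and from 50 mGFP UMIs per 10000. In set 2 Tmprss2 went from 128 CPM in 171 cells with above 0 to under 10 mGFP UMIs per 10000 to 41.8 and 21.0 CPM.

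**Figure D3:**
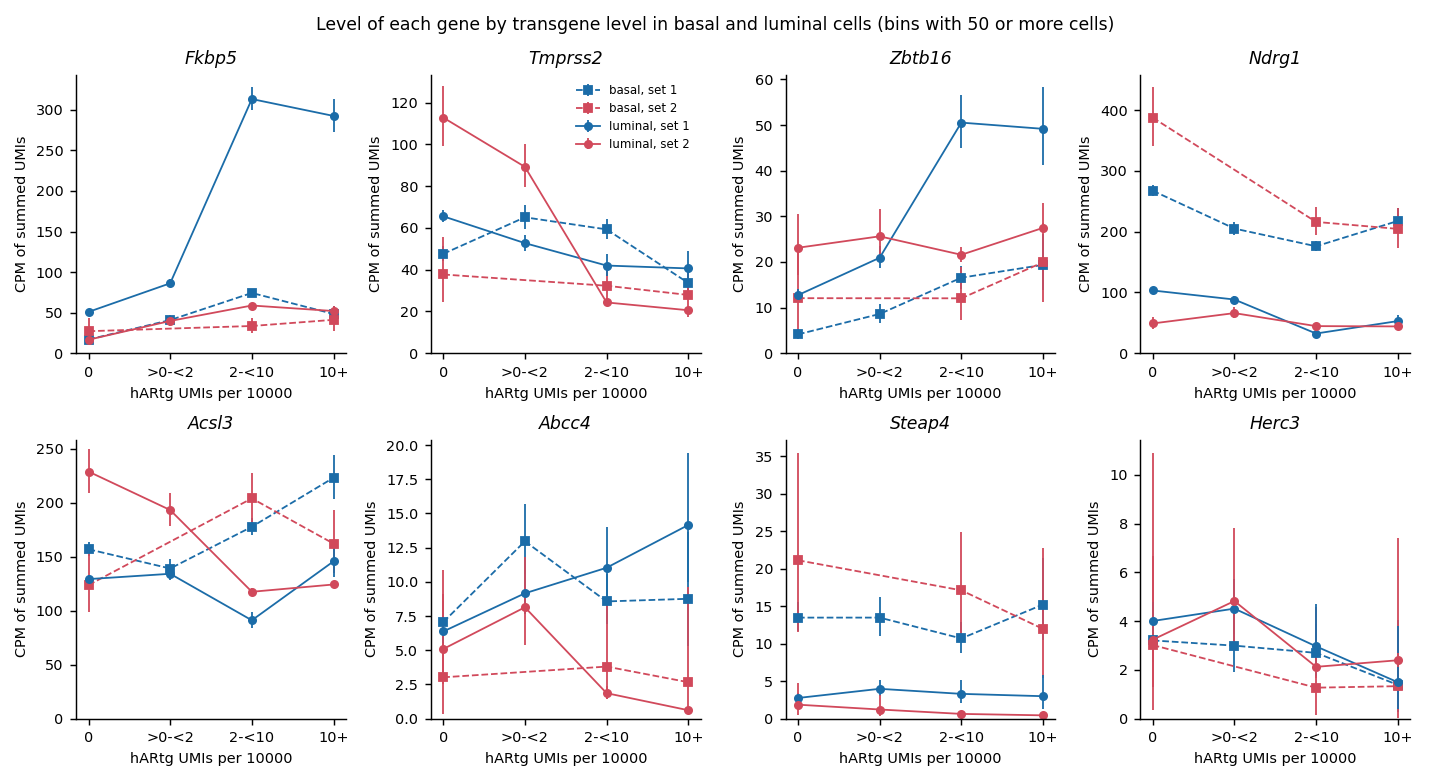
Level of each gene (CPM of summed UMIs, linear axes from 0) over 4 bins of hARtg UMIs per 10000 in basal-like (dashed lines, squares) and luminal-like cells (solid lines, circles) of barcode set 1 (blue) and set 2 (red); bars are exact Poisson 95% intervals, lines join measured bins, and bins under 50 cells are left out. Fkbp5 and Zbtb16 of luminal-like cells in set 1 were higher up to the bin of 2 to under 10 (313 and 50.5 CPM) and alike beyond it, while Tmprss2 went from 113 to 20.6 CPM in set 2.

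Clusters made within each set, from features without the 8 genes, the transgene and the other androgen response genes, placed the levels within the epithelium. In set 1, cluster 7 (401 cells, most often luminal-like, with 739 CPM of hARtg) held 314 CPM of Fkbp5 and 47.2 CPM of Zbtb16. Cluster 2 (369 cells, led by Msmb, with 60.0 CPM of hARtg and 13409 CPM of Pbsn) came next with 172 and 37.0 CPM. High Fkbp5 and Zbtb16 were therefore also found in a Pbsn-rich cluster with little transgene. In the other epithelial clusters of set 1 Fkbp5 lay between 12.1 and 63.3 CPM.

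Among the basal-like clusters of set 1, cluster 9 carried the transgene (723 CPM of hARtg, 613 cells) and had 34.5 CPM of Fkbp5 and 14.9 CPM of Zbtb16, while clusters 0, 6 and 10 (57.0 to 124 CPM of hARtg) had 12.1 to 18.1 and 1.56 to 4.67 CPM. Of the 1000 hARtg+ basal-like cells, 523 were in cluster 9 and held 23.9% of the Fkbp5 and 41.7% of the Zbtb16 UMIs of that side. A further 78 cells, 7.8% of the side, were in the luminal-like cluster 7 and held 46.1% of the Fkbp5 and 25.8% of the Zbtb16 UMIs, at 206 CPM (190 to 224) and 27.2 CPM (21.3 to 34.1). With classes taken from clusters, which leaves these cells out of the basal class, Fkbp5 stood at log2 1.16 (0.86 to 1.46) and Zbtb16 at 1.83 (1.25 to 2.45). Where a cluster held 50 or more cells on each side, the ratio was taken again within it. Fkbp5 gave log2 0.17 (-0.50 to 0.80) in cluster 0, 0.36 (-0.89 to 1.51) in cluster 6, 0.95 (0.04 to 1.84) in cluster 10 and 0.70 (0.22 to 1.20) in cluster 11, all below the 1.79 of the whole class. Zbtb16 had intervals across 0 in clusters 0, 6 and 11 and gave log2 2.20 (0.30 to 4.38) in cluster 10. The interval of cluster 10 held the class value, and cluster 9, the largest on the hARtg+ side, had too few hARtg- cells to be split.

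In set 2, 1 luminal-like cluster could be split in the same way, cluster 13, with 51 hARtg-high and 80 hARtg 0 cells. Fkbp5 was at 46.5 against 9.69 CPM there (log2 2.26, 1.44 to 3.18), a difference as large as in the whole class. Tmprss2 gave log2 -0.28 (-0.59 to 0.03, an interval that held 0) within the cluster against -2.40 in the class, and Ndrg1 2.03 (0.86 to 3.37) against -0.15. Abcc4 gave 1.08 (-0.25 to 2.52, from 15 and 8 UMIs), an interval that held 0. Cluster 13 as a whole held 134 CPM of Tmprss2, 262 CPM of Acsl3, 10.1 CPM of Abcc4 and 7097 CPM of Pbsn, with 289 CPM of hARtg. The other luminal-like clusters of set 2 held 13.2 to 40.6 CPM of Tmprss2 and 938 to 1856 CPM of hARtg. Of the Tmprss2 UMIs on the hARtg 0 side of set 2, 87.3% were in cluster 13. In set 1 the hARtg-high cells of cluster 7 held 89.2% of the Fkbp5 UMIs of their side, and the 157 hARtg 0 cells of cluster 2, 13.9% of their side, held 56.9% of the Fkbp5 UMIs of theirs.

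**Figure D4:**
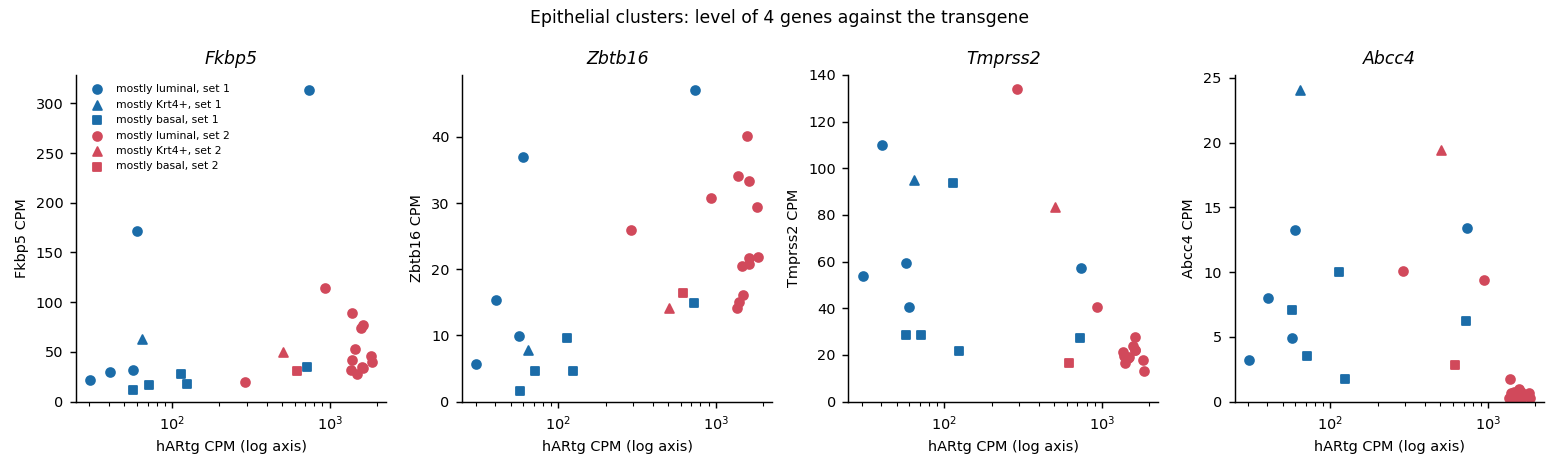
Levels of Fkbp5, Zbtb16, Tmprss2 and Abcc4 (CPM, linear axes from 0) against hARtg (CPM, log axis) in clusters made up mostly of luminal-like (circles), Krt4+ (triangles) or basal-like cells (squares) of barcode set 1 (blue) and set 2 (red); each point is 1 cluster of 50 or more cells. The highest Fkbp5 (314 CPM) was in a cluster of set 1 with 739 CPM of hARtg, and the highest Tmprss2 (134 CPM) in cluster 13 of set 2, the luminal-like cluster of that set with the least hARtg (289 CPM).

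Other androgen response genes gave a mixed picture as well. Of a list of 30 non-secretory genes, 29 had a ratio in basal-like cells and all 30 in luminal-like cells. In basal-like cells 2 were called higher and 0 lower in set 1 (3.95% and 2.37% over all genes), and 3 higher and 1 lower in set 2 (3.36% and 2.55%). In luminal-like cells 5 were called higher and 2 lower in set 1 (7.4% and 7.2% over all genes), and 5 higher and 8 lower in set 2 (6.91% and 12.6%). The median log2 ratios were 0.10 and 0.19 in basal-like, and 0.03 and -0.25 in luminal-like cells, beside -0.02, -0.02, -0.13 and -0.45 over all genes tested. Those named were among the 2 highest or the 2 lowest with 50 or more UMIs in a comparison.

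Hpgd, which breaks down prostaglandins, was among the highest in basal-like cells of both sets, at 56.6 against 19.0 CPM (log2 1.58) and 55.7 against 21.1 CPM (log2 1.40). Aldh1a3, which makes retinoic acid, was at 45.2 against 72.6 CPM in basal-like cells of set 1 (log2 -0.68). In those of set 2 it was at 54.6 against 10.6 CPM (log2 2.37, 1.29 to 3.71). The hARtg- side of set 2 held only 14 Hpgd and 7 Aldh1a3 UMIs. Odc1, the first enzyme of polyamine synthesis, was among the lowest in basal-like cells of both sets (log2 -0.67 and -1.47). Nedd4l, a ubiquitin ligase, was the other in set 2 (log2 -0.94, -1.77 to -0.05). Lifr, a cytokine receptor, was high in luminal-like cells of both sets (log2 1.34 and 1.83), beside Inpp4b, a lipid phosphatase, in set 2 (18.2 against 3.70 CPM, log2 2.30). The hARtg 0 side of set 2 held only 10 Lifr and 8 Inpp4b UMIs. Pmepa1, a negative regulator of TGF-beta signalling, was low in both, at 133 against 324 CPM (log2 -1.29) and 4.29 against 166 CPM (log2 -5.27). Sord, which turns sorbitol to fructose, was the other in set 1 (log2 -1.38), and Bmpr1b, a BMP receptor, was the other in set 2 (log2 -2.55).

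Likeness between genes was measured as Pearson's r of log2(CPM + 10) over the 11 class-by-set profiles with 50 or more cells, which share libraries. Among the 8 genes, Ndrg1 and Steap4 were most alike (r = 0.91), followed by Fkbp5 and Tmprss2 (0.81) and by Acsl3 and Tmprss2 (0.77). Abcc4 and Zbtb16 were least alike (-0.62), and Fkbp5 and Zbtb16 gave 0.26. Of all genes that reached 50 CPM, those most like each member were Chchd2 and Cyb561 for Fkbp5 (0.97 and 0.96), Cgn and Elf3 for Tmprss2 (both 0.99), Mrps26 and Plekhj1 for Zbtb16 (0.94 and 0.93), Fjx1 and Frmd6 for Ndrg1 (both 0.94), Papss2 and Lancl3 for Acsl3 (0.98 and 0.97), Apol9a and Ralb for Abcc4 (0.96 and 0.95), Fmo2 and Sphk1 for Steap4 (0.98 and 0.97), and Cd27 and Txk for Herc3 (both 0.98).

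The genes lie on 8 chromosomes of the mouse genome (RefSeq annotation of GRCm38.p6, the assembly behind mm10), with Fkbp5 at chr17:28398753-28486149, Zbtb16 at chr9:48651797-48836225, Tmprss2 at chr16:97564682-97659541, Ndrg1 at chr15:66929318-66969641, Acsl3 at chr1:78657825-78707743, Abcc4 at chr14:118482692-118707856, Steap4 at chr5:7960472-7982213 and Herc3 at chr6:58831455-58920398. Promoter windows of 250 bases before to 50 after a start site were given for 6 of the genes (7 windows). The androgen response element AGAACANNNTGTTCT was in 0 of the 7, and in 3 of 32851 windows of all genes. The half-site TGTTCT, searched on both strands, was in 1 of the 7, at a second start site of Abcc4, and in 19.0% of all.

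In luminal-like cells of each set, Fkbp5 was higher and Tmprss2 lower on the hARtg-high side. The sequences upstream of the Fkbp5 start and of a Tmprss2 start that lies inside the span given for that gene are therefore printed. So is that of the second Abcc4 start, which held the only match. They are 250 bases each, 5′ to 3′ on the minus strand of GRCm38.p6, at chr17:28486150-28486399, chr16:97611196-97611445 and chr14:118676932-118677181, with the half-site in capitals.
Fkbp5: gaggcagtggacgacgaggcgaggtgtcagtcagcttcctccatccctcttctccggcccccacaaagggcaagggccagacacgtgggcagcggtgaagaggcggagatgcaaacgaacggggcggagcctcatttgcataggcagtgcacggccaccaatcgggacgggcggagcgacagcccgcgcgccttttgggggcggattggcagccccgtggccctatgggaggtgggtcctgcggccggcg
Tmprss2, internal start: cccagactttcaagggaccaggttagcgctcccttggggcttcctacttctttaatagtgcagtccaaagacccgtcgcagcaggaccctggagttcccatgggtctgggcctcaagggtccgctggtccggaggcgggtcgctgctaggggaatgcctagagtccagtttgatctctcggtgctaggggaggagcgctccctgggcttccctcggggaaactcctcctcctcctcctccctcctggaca
Abcc4, second start: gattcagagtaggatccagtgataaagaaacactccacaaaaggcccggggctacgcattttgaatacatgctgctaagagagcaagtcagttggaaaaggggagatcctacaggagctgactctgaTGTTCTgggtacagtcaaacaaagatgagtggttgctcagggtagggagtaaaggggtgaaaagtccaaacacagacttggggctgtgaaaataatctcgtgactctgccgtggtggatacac
No match says only that these letters are not in these windows.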

How the data were processed

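Cells of PIN and PCa tissue were processed by the authors with Cell Ranger 3.1.0 on mm10 with the mGFP and hARtg sequences added, and low-quality cells and multiplets were removed before deposit. The deposited table holds natural log values, ln(1 + UMIs per 10000), for 15742 cells. Whole UMIs were recovered for 100% of 56988269 values above 0 (relative tolerance 0.001), and all levels, ratios and intervals were computed from them (Python 3.11.15, NumPy 2.4.6, SciPy 1.17.1, Scanpy 1.11.5). Scrublet's automatic limit called 0 doublets, so a score of 0.25 was used, which removed 150 and 183 cells.

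Cells were gated per 10000 UMIs. Basal-like cells had 16 or more of Krt5, Krt14 and Krt15 summed. Luminal-like cells had under 2 of these, 16 or more of Krt8 and Krt18 and under 1 of Krt4. Krt4+ cells had 1 or more of Krt4 and the same limit of Krt8 and Krt18. Their limit of Krt5, Krt14 and Krt15 was wider, at under 16. Other classes needed 3 or more of their markers. Limits were set after the distributions were seen, and 454 and 561 cells stayed unassigned. Ratio intervals are exact conditional binomial, those of levels exact Poisson and those of shares Clopper-Pearson, all 95%. With 1 library per label there was no test between samples. On simulated counts the ratio step was tested on known changes. The members, the 30 other androgen response genes and the markers were chosen with earlier results of these data known. Genes named from that list were the 2 highest and 2 lowest ratios with 50 or more UMIs. Some values from these lists are not reported here. Alternatives covered clusters, gate margins, doublets, scaling, thinning, the reporter and the hARtg limit.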

Additional observations from a re-analysis of the deposited data

Results flagged for a closer look

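In luminal-like cells, 2 members lay on opposite sides of 0 in the barcode sets, and the difference between the sets was not tested. The log2 ratio of Abcc4, hARtg-high over hARtg 0, was 0.95 in set 1 and -2.47 in set 2, where the zero side held 11 UMIs. Of these 8 were in cluster 13, within which the log2 ratio was 1.08 (-0.25 to 2.52). The log2 ratio of Steap4 was 0.60 in set 1 and -1.98 in set 2, where the zero side held 4 UMIs.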

How the results depend on the processing

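In basal-like cells of set 1, Tmprss2 went to log2 -0.11 with clusters in place of the gate and to -0.0496 with hARtg counted after thinning to 3000 UMIs. Abcc4 went to -0.0675 with the thinned split. The sign changed in each case, but each of these intervals held 0. In luminal-like cells of set 1, the count of members called lower went from 1 to 0 at 1 or more hARtg UMIs. In set 2, the count called higher went from 1 to 2 with clusters, where Ndrg1 (log2 1.08) joined Fkbp5, and to 0 with the thinned split and with a thinned split at 1 or more, the latter chosen after seeing the data (Fkbp5 0.42 and 0.44). Both thinned splits of set 2 put 498 cells on the zero side, among them cells with hARtg UMIs before thinning. The cause of the changed counts was not tested. Of the other counts of members, 74 stayed within 1.5 times, and of the member ratios 258 moved by less than their interval and 46 by more. Of the member levels by class, 260 were counted as the same and 84 as moved. With clusters in place of the gate 47 levels moved and 33 did not, and with a doubled margin of the gate 22 moved and 66 did not. Each value was counted once per alternative. The 258 include 29 ratios under a limit of 50 or more UMIs, which leaves members out but cannot change a ratio. Fewer than 50 cells on a side left the reporter split not run in basal-like and luminal-like cells of set 2, and the thinned split at 5 in luminal-like cells of set 1. No paired analysis was possible because PIN and PCa had 1 library apiece.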
